A study of Mus musculus with 22 samples.

Results

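The genes described here are 10 members of the hypoxia-inducible factor (HIF) pathway that lie outside glycolysis, out of 32544 gene rows in each deposited table. They are Hif1a, Egln1, Egln3, Bnip3, Bnip3l, Ankrd37, P4ha1, Vegfa, Ddit4 and Car9, and all 10 were found by symbol in both tables. They were chosen by known HIF inducibility, and Egln3 and Bnip3 were selected on their large rise in macrophages cultured with primary tumor cells. That rise, and the same contrast with early lesion cells, is therefore given as a description with no test on the members. The choice named the rise as one with primary tumor cells only, but in these libraries both genes were also higher in macrophages with early lesion cells, as the values below show.

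HIF is a transcription factor made of an oxygen-labile alpha subunit, such as the product of Hif1a, and the stable partner Arnt. When oxygen is present, prolyl hydroxylases of the Egln family mark the alpha subunit for capture by Vhl and degradation, so the subunit is controlled mainly as a protein, and in macrophages inflammatory signals can also raise it. Stabilized HIF binds DNA at a short core motif and induces genes for glycolysis, vessel growth, matrix synthesis, removal of mitochondria and, as feedback, Egln1 and Egln3 themselves.

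The study compared mouse cells grown alone with the same cells grown in co-culture for 7 days on Matrigel, followed by sorting and bulk RNA sequencing of polyadenylated RNA. Mammary cells carried the genotype MMTV-HER2, a HER2 transgene under the mouse mammary tumor virus promoter, and came from early lesions (EL) or primary tumors (PT). Alveolar macrophages (AM), phagocytes that live in the air sacs of the lung, were from wildtype FVB animals. The early lesion experiment held 3 libraries of EL cells alone, 3 of EL cells with macrophages, 2 of macrophages alone and 2 of macrophages with EL cells. The primary tumor experiment held 3 libraries in each of the matching 4 groups. All groups grew in medium with horse serum, hydrocortisone, insulin and EGF. The sources used here give no animal ages, animals per library, oxygen level or sorting gate.

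The 22 libraries held 19.7 to 43.7 M counts each. The share of mitochondrially encoded genes was 2.86 to 3.53% in 16 of them. The 6 macrophage libraries of the primary tumor experiment stood apart, with 65.7 to 78.6% mitochondrial counts and, in replicate 1 of the macrophages alone, 12.9% from the single gene Grip2. Grip2 took 1.85 to 2.60% in the other macrophage libraries of that experiment, and 5.84 and 7.38% in replicate 3 of PT cells alone and with macrophages. In those 6 macrophage libraries 4.65 to 6.03 M counts came from all other genes, so low genes are less precise there. Their mitochondrial share also differed with culture, at 65.7, 72.7 and 69.6% alone and 78.6, 74.9 and 76.45% with PT cells, without overlap. The contrast of macrophages with PT cells against alone thus carries that difference, whose part in the changes below was not tested. All 10 macrophage markers were detected in each macrophage group. Their summed level was 35759 to 42008 CPM in macrophages of the early lesion experiment but 12074 to 15909 CPM in those of the primary tumor experiment. The 8 epithelial markers summed to 2601 to 3081 CPM in the mammary libraries, which also held fibroblast markers at 186 to 1853 CPM. In bulk samples, fewer cells of a type and less RNA per cell cannot be told apart.

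The promoters of 4 genes are shown because the values below turn on them: Egln3 and Bnip3 for their rise in macrophages, Ddit4 for its gap between cell types, and Hif1a as the regulator. Sequences are from RefSeq on GRCm38.p6, each running from 250 bases before to 50 bases after the annotated start, on the strand of the gene. Capitals mark the HIF core letters ACGTG or, where they lie on the other strand, CACGT, and overlapping matches share letters.
Egln3, chr12:54203825-54204124, minus strand: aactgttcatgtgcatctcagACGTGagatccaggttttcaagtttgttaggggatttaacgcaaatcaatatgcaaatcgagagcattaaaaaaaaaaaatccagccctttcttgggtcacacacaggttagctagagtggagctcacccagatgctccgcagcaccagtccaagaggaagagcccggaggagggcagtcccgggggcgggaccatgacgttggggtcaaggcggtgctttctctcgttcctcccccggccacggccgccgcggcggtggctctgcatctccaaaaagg
Bnip3, chr7:138909457-138909756, minus strand: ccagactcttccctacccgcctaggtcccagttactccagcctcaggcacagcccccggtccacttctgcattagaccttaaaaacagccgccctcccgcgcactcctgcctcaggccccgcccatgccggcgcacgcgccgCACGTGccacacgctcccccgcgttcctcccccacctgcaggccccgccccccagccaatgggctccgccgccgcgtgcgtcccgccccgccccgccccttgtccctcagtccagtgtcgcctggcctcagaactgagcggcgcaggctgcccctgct
Ddit4, chr10:59951721-59952020, minus strand: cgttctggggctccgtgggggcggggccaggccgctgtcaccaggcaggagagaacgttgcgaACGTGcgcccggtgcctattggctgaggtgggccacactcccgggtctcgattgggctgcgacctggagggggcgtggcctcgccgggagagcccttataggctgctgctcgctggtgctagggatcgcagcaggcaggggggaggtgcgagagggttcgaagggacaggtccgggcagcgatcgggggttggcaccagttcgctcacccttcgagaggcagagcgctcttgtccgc
Hif1a, chr12:73907617-73907916, plus strand: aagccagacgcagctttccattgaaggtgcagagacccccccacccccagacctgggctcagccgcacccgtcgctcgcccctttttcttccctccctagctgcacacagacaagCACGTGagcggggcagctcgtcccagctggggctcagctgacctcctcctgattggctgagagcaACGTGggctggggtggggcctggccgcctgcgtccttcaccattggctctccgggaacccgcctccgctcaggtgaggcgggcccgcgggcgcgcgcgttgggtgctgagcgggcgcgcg
Egln3 and Ddit4 held 1 match each, at positions -229 and -187 from the start. Bnip3 held an overlapping pair that reads the same on both strands, and Hif1a held 3 matches. RefSeq promoters were matched for 9 of the genes, 10 promoters in all because Vegfa had 2, and 9 of the 10 held at least 1 match. The promoter without a match was that of Vegfa at chr17:46032328-46032627, whose end lies in an annotated Vegfa transcript. The Vegfa match was in its other promoter, at chr17:46025114-46025413, whose end does not. Of all 32851 promoters of the same length, 19.6% held at least 1 match. A match is a description of letters and was not tested as a binding site.

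The exons of several members overlap other annotated genes in GENCODE. The antisense gene Gm45507 covers 22.3% of the exon bases of Bnip3, and Lrp2bp on the opposite strand covers 22.7% of those of Ankrd37. Gm12454 covers 9.29% of Car9, and Gm15283 covers 5.60% of Hif1a. The sources used here do not give the strand setting of the counting, so reads of these genes and their opposite partners may not be told apart.

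Levels below are CPM, counts scaled to an equal library size, after 1 TMM normalization over all 22 libraries. Groups are said not to overlap where every library of 1 group lay above every library of the other. The share of all genes with such groups was not computed, so nothing is read from a lack of overlap. The experiments were deposited as separate raw count tables, so a level set across them can also carry differences between experiments.

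The prolyl hydroxylase gene Egln3, a HIF target whose product acts back on HIF, had the largest fitted difference of the 10 genes in macrophages with PT cells. Macrophages alone in the primary tumor experiment had 0.600, 2.40 and 3.46 CPM, from 4, 19 and 29 counts. Macrophages with PT cells had 73.8, 82.7 and 118 CPM, from 478, 472 and 709 counts. Every co-cultured library thus lay far above every control, and the fitted change was 5.30 ± 0.36 on the log2 scale (SE, 3 against 3 libraries), a 39.3-fold difference. In the early lesion experiment, macrophages alone had 22.6 and 13.4 CPM and those with EL cells had 45 and 33 CPM. These groups did not overlap either, with a log2 change of 1.10 ± 0.39 (SE, 2 against 2). The control macrophages of the experiments therefore differed, with a mean of 2.15 ± 1.45 CPM (SD, n = 3) in the primary tumor experiment and 18.0 ± 6.50 (SD, n = 2) in the early lesion experiment. The difference between the log2 changes was 4.19 ± 0.59 (SE), and it combines the higher co-cultured level with the lower control level. The part of depth or mitochondrial share in that control difference, or in the change with PT cells, was not tested.

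Bnip3 and Bnip3l encode related outer mitochondrial membrane proteins that act as receptors for mitophagy, the removal of mitochondria. Bnip3 measured 21.7, 29.8 and 32.3 CPM in macrophages alone and 285, 339 and 374 CPM in macrophages with PT cells. With EL cells it was 76.5 and 66.0 CPM against 47.8 and 33.0 CPM alone. Neither pair of groups overlapped, and the log2 changes were 3.52 ± 0.14 and 0.79 ± 0.23 (SE). The EL value for Bnip3 ranged from 0.53 to 1.08 when each library was left out, and that for Egln3 from 0.74 to 1.52, both lowest without control replicate 2.

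Bnip3l was abundant in every macrophage library and moved less. Its levels were 274, 322 and 299 CPM alone and 475, 460 and 488 CPM with PT cells, a log2 change of 0.62 ± 0.08 (SE) without overlap. In the early lesion experiment it was 228 and 225 CPM alone against 237 and 234 CPM, a log2 change of 0.02 ± 0.06. Those groups did not overlap either, so with 2 libraries in each group so small a difference can lack overlap. Per kilobase of exon, macrophages with PT cells had 147 CPM per kb of Bnip3 and 123 of Bnip3l, the highest of the 10 genes in that group, whereas alone Bnip3l stood at 77.4 and Bnip3 at 12.3 CPM per kb.

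Egln1 encodes the prolyl hydroxylase that sets basal HIF-alpha turnover in most tissues. It measured 32.8, 48.2 and 48.2 CPM in macrophages alone and 107, 145 and 131 CPM with PT cells, groups that did not overlap, a log2 difference of 1.52 ± 0.15 (SE). With EL cells it stood at 84.9 and 81.9 CPM against 73.7 and 61.3 CPM, a log2 difference of 0.27 ± 0.09. Hif1a itself showed no such pattern: its levels were 225, 236 and 191 CPM alone and 195, 173 and 187 CPM with PT cells, overlapping groups with a log2 difference of -0.28 ± 0.10. With EL cells Hif1a was 180 and 167 CPM against 136 and 142 CPM, a log2 difference of 0.29 ± 0.07. As a description, the Hif1a transcript was thus not higher in macrophages with PT cells, while that of Egln1 was.

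Ddit4 encodes an inhibitor of mTORC1 signaling induced by stress and low oxygen. It was scarce in macrophages alone, at 0.900, 1.14 and 1.91 CPM in the primary tumor experiment and 2.25 and 1.45 CPM in the early lesion experiment. It reached 17.8, 23.6 and 17.5 CPM with PT cells and 9.84 and 8.19 CPM with EL cells, log2 differences of 3.81 ± 0.28 and 2.28 ± 0.20 (SE). Neither pair of groups overlapped.

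Vegfa, the main vascular growth factor among HIF targets, differed by nearly the same log2 amount with either partner. It was 2.70, 2.27 and 4.54 CPM alone and 11.7, 16.5 and 13.6 CPM with PT cells, a log2 difference of 2.08 ± 0.27 (SE). It was 14.3 and 9.05 CPM alone and 56.1 and 50.8 CPM with EL cells, a log2 difference of 2.18 ± 0.24. Control and co-cultured levels were both higher in the early lesion experiment, and the difference between the log2 changes was -0.11 ± 0.37.

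P4ha1, a catalytic subunit of the collagen prolyl 4-hydroxylase, shared that order. It stood at 13.4 to 15.6 CPM alone and 23.2 to 32.6 CPM with PT cells, against 72.4 and 82.3 CPM alone and 126 and 116 CPM with EL cells. The log2 differences were 0.96 ± 0.17 and 0.61 ± 0.08 (SE). Ankrd37, a small ankyrin repeat gene known as a HIF target, rested on few counts: 0, 1 and 5 alone and 12, 20 and 21 with PT cells, a log2 difference of 3.38 ± 0.69 that ranged from 2.91 without control replicate 1 to 5.03 without control replicate 3. With EL cells it was 4.09 and 4.04 CPM against 2.88 and 1.39 CPM alone, without overlap, a log2 difference of 0.92 ± 0.30. Car9, a surface carbonic anhydrase and classical tumor hypoxia marker, stayed at 2.63 to 4.02 CPM in every macrophage library, with log2 differences of -0.03 ± 0.33 and -0.08 ± 0.17.

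As a description from the fit over all genes, which is no test of members chosen on it, 8 of the 10 members were higher and 1, Hif1a, lower past the adjusted threshold of 0.05 in macrophages with PT cells, where 15.8% of 11121 tested genes were higher and 14.8% lower. With EL cells 4 were higher, Hif1a, P4ha1, Vegfa and Ddit4, and 0 lower, against 9.11% higher and 9.19% lower of 14032 genes. Egln3 and Bnip3 were not among those 4. In the difference of the responses 5 were higher and 1 lower, against 5.7% and 5.25%. DESeq2 put 9 members past its threshold with PT cells, 6 with EL cells and 7 in the difference. The shares above are those of edgeR, and the share of all genes that DESeq2 called in these fits is not given here. Since these contrasts chose members, nothing is read from the counts.

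**Figure D1:**
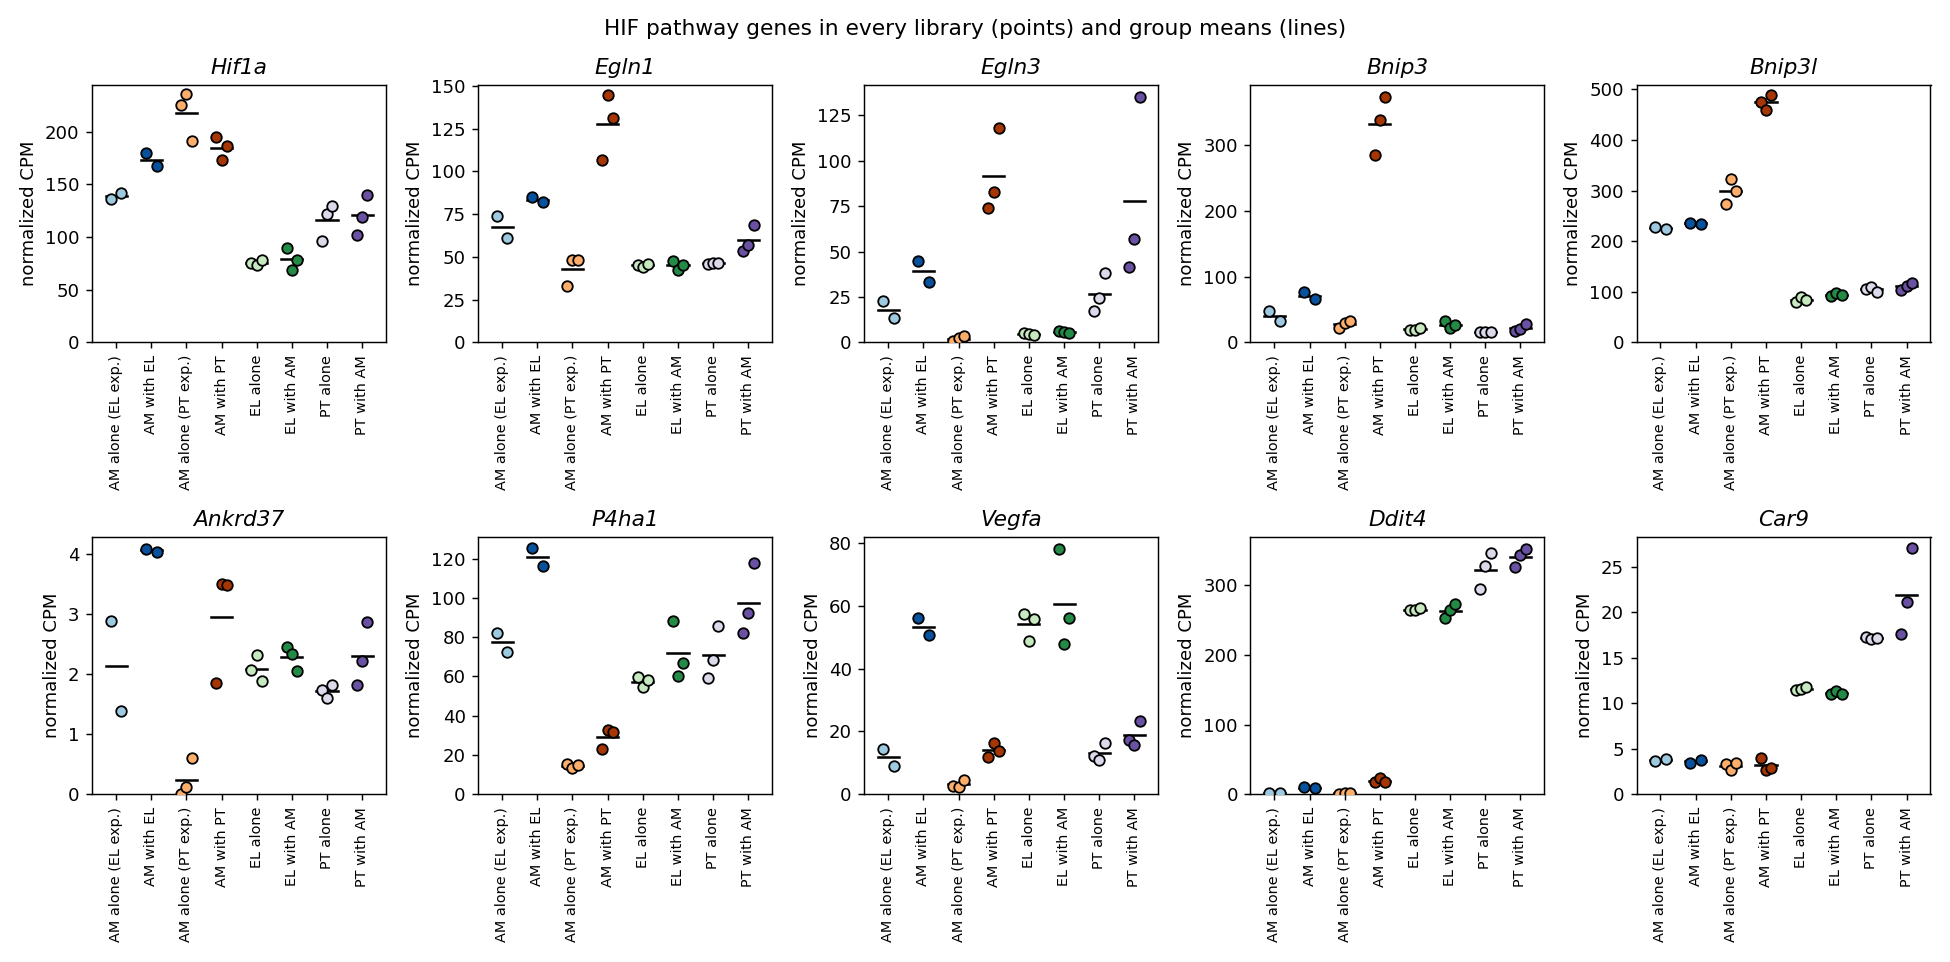
Normalized CPM (vertical axes, linear, from 0) of each gene in the 8 groups (horizontal axes; AM, macrophages; EL, early lesion cells; PT, primary tumor cells); points are libraries and lines are group means. Bnip3 in macrophages with PT cells, at 285 to 374 CPM, lies above every other library, while Ddit4 is high in mammary libraries and at or below 23.6 CPM in macrophages.

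RNA of the mammary partner in the sorted macrophages was gauged from epithelial markers. The rise of each of the 8 markers in co-cultured macrophages, as a share of its level in the partner mammary cells, had a median of 0.83% with EL cells (range 0.60 to 14.7%) and 0.90% with PT cells (range 0.50 to 78.1%). Krt19 gave the highest share in both and Cdh1 gave 13.0% with EL cells; both were already present in macrophages alone, at group means of 9.89 to 76 CPM. At the median share, the partner level of Egln3 would amount to 0.702 CPM with PT cells, where its mean was higher by 89.3 CPM. For Bnip3 the same share was 0.199 CPM and the difference 305 CPM. Ddit4, the member with the highest CPM in mammary cells, was higher by 18.3 CPM with PT cells and 7.17 CPM with EL cells, where the median share was 3.08 and 2.19 CPM. Egln3 and Bnip3 were present in macrophages alone too, as Krt19 and Cdh1 were. A share as high as that of Krt19 was not tested against the members, and neither was the source of their RNA.

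The other genes of the pathway were 37 genes in 5 lists. The lists were drawn up with earlier results of these data known, so the tests of their responses carry that limit. In macrophages with PT cells 27 entered the fit, and 15 were higher and 2 lower past the threshold (edgeR quasi-likelihood test, Benjamini-Hochberg). Over all genes in that fit 15.8% were higher and 14.8% lower. The median log2 change of the 27 was 0.51 against 0.0007 over all genes. Selenbp1, a methanethiol oxidase gene, was the most clearly higher, at 7.05, 6.81 and 7.52 CPM alone and 34.3, 34.5 and 43.4 CPM with PT cells (log2 2.34 ± 0.16 SE, adjusted p 2.97e-07). Fam162a, which encodes a mitochondrial protein, rose by 1.98 ± 0.15 (adjusted p 5.15e-07). Ndrg1, a stress-response gene, rose by 3.71 ± 0.28 (adjusted p 5.15e-07), from 1.07 to 1.5 CPM to 12.6 to 19.8 CPM. None of these 3 genes had overlapping groups.

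Of the 5 genes of the mitochondrial list 3 entered the fit, and those rose: Higd1a by 1.31, Ak4 by 2.58 and Fam162a. Ndufa4l2 and Cox4i2 had too few counts to be tested. Of the 7 subunit and regulator genes in the fit 4 rose, among them Vhl by 0.90 and Epas1, which encodes HIF-2 alpha, by 0.51. Of the 4 tested collagen-modifying genes 0 passed, with 1 at an unadjusted p under 0.05 by edgeR and 1 by DESeq2. Of the 3 tested secreted and vascular genes 1 rose, and of the 10 tested other induced genes 7 rose and 2 fell. The genes that fell were Tfrc, the transferrin receptor, by 1.27 ± 0.23 on the log2 scale (adjusted p 0.000898), and Cxcr4, a chemokine receptor, by 0.92 ± 0.16 (adjusted p 0.000690). The rise of Car12, a carbonic anhydrase, rested on 1 count alone against 82, a ratio of 104 with an exact 95% counting interval of 18.1 to 4140; it was 1.00% of the PT cell level, close to the epithelial median.

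In macrophages with EL cells 30 of the 37 entered the fit, and 7 were higher and 4 lower, with a median log2 change of 0.08 against 0.002 over all genes. Over all genes in that fit 9.11% were higher and 9.19% lower. Epas1 rose from 34 and 38.4 CPM to 61.8 and 60.9 CPM (log2 0.73 ± 0.07 SE, adjusted p 4.18e-05). Angptl4, a secreted regulator of lipoprotein lipase, rose by 0.57 ± 0.08 (adjusted p 0.000317). Car12 differed by 4.63 ± 0.43 (adjusted p 2.25e-05), at 0.56% of the EL cell level. Cxcr4 fell by 1.37 ± 0.09 (adjusted p 1.33e-06), the VEGF receptor gene Flt1 by 1.10 ± 0.15 (adjusted p 0.000462) and Tfrc by 0.29 ± 0.07 (adjusted p 0.0158; 0.0516 with DESeq2). Of the 3 tested mitochondrial genes 0 passed, with 1 at an unadjusted p under 0.05 and 1 called by DESeq2.

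The difference between the responses was tested directly as an interaction. Of 30 genes in that fit 11 had a higher log2 change with PT than with EL cells and 1 a lower one, which need not be a rise or a fall in either: Flt1 fell with EL cells and Tfrc fell with both partners. Over all genes in that fit 5.7% were higher and 5.25% lower. Selenbp1 differed by 2.13 ± 0.25 on the log2 scale (adjusted p 0.000106), Fam162a by 1.56 ± 0.21 (adjusted p 0.000319) and Narf, a nuclear prelamin A binding gene, by 1.07 ± 0.17 (adjusted p 0.00110). Tfrc differed by -0.98 ± 0.25 (adjusted p 0.0205), a call lost without any 1 of the 4 macrophage libraries of the early lesion experiment (adjusted p 0.0587 to 0.0923). The count of 12 fell to 7 without replicate 1 of the macrophages alone of that experiment. The partner and the experiment, with its mitochondrial share, cannot be told apart in this contrast.

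**Figure D2:**
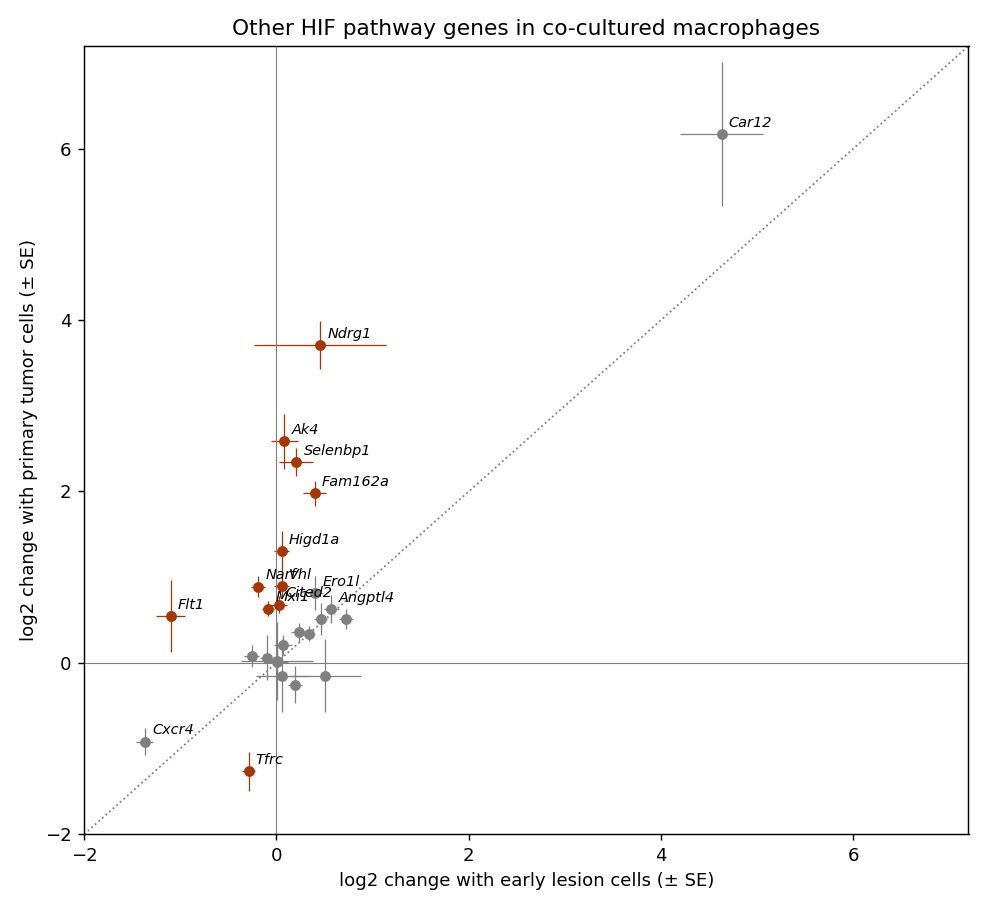
Log2 change in macrophages with early lesion cells (horizontal) and with primary tumor cells (vertical), with SE bars, for the 27 other HIF pathway genes in both fits; the dotted line marks equality and colored points are the 11 whose responses differed past 0.05. Points for Ndrg1, Ak4, Selenbp1 and Fam162a lie well above the line.

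In primary tumor cells all 10 members were above 0 in log2 change with macrophages, with a median of 0.40 against 0.005 over all genes, but 0 of 10 passed the threshold in the fit without pairing. By edgeR 6 had an unadjusted p under 0.05, and DESeq2 called 2, Egln1 and Bnip3. Past the adjusted threshold of edgeR, 0.659% of 13506 tested genes were higher and 1.01% lower. The share of all genes at that unadjusted p was not computed for any comparison, so nothing is read from such counts here or elsewhere. DESeq2 totals over all genes in mammary cells are given in the last section. Egln3 was again the member with the largest log2 change, at 17, 24.2 and 38.4 CPM alone and 41.4, 56.9 and 135 CPM with macrophages. The groups did not overlap, and the log2 difference was 1.56 ± 0.58 (SE, adjusted p 0.240), or 0.89 without co-cultured replicate 3, the library with 7.38% Grip2.

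The labels do not say whether same-numbered libraries share a source. PT libraries were taken as pairs because deviations from the group means of same-numbered libraries correlated at 0.535, 0.469 and 0.596 across genes. That pairing was read from the same counts as the block fit below, whose calls carry that limit. Egln3 was higher in each pair, by 1.28, 1.23 and 1.82 on the log2 scale. With the replicate as a block, 4 members rose: Egln3 by 1.46 ± 0.15 (adjusted p 0.00639), Vegfa by 0.51 ± 0.07 (adjusted p 6.47e-05), P4ha1 by 0.46 ± 0.05 (adjusted p 2.87e-06) and Egln1 by 0.37 ± 0.06 (adjusted p 0.000854). In that fit 10.6% of all genes were higher and 10.4% lower. Vegfa stood at 12.1, 11 and 16.3 CPM alone and 17.2, 15.7 and 23.3 CPM with macrophages, so the groups overlapped while the pair differences, 0.50 to 0.52, were nearly equal. P4ha1 behaved likewise, with pair differences of 0.44 to 0.47.

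Bnip3 was 15.9, 16.4 and 15.3 CPM alone and 18.1, 20.2 and 27.8 CPM with macrophages, and did not pass with the block (log2 0.46 ± 0.14, adjusted p 0.0713). Neither did Car9 (0.34 ± 0.11, adjusted p 0.0818), at 17 to 17.3 CPM alone and 17.6 to 27.1 CPM with macrophages. Hif1a, Bnip3l and Ddit4 had log2 differences of 0.06 to 0.09. Macrophage markers summed to 8.39 to 10.3 CPM in these co-cultured cells, 3.83 to 5.44 in PT cells alone and 12709 to 15909 in the macrophages of the co-culture.

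Of the other pathway genes 33 were tested in PT cells, where 0.659% of all genes were higher and 1.01% lower without pairing. Without pairing 1 passed, Pgf, a placental growth factor of the VEGF family, at 71.8, 76.8 and 94.2 CPM alone and 125, 136 and 158 CPM with macrophages (log2 0.79 ± 0.12 SE, adjusted p 0.0356). That call held in 1 of 6 fits that left out a library, the one without mono-cultured replicate 3; the others gave an adjusted p of 0.0502 to 0.182. With the block 13 rose and 3 fell, where 10.6% of all genes were higher and 10.4% lower. Those that rose included Pgf (adjusted p 6.28e-09), Ak4 by 0.86 (adjusted p 5.87e-08), Plod2, a collagen lysyl hydroxylase gene, by 0.50 (adjusted p 8.55e-06), and all 3 tested mitochondrial genes. Angptl4 fell by 0.71 (adjusted p 3.70e-07).

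**Figure D3:**
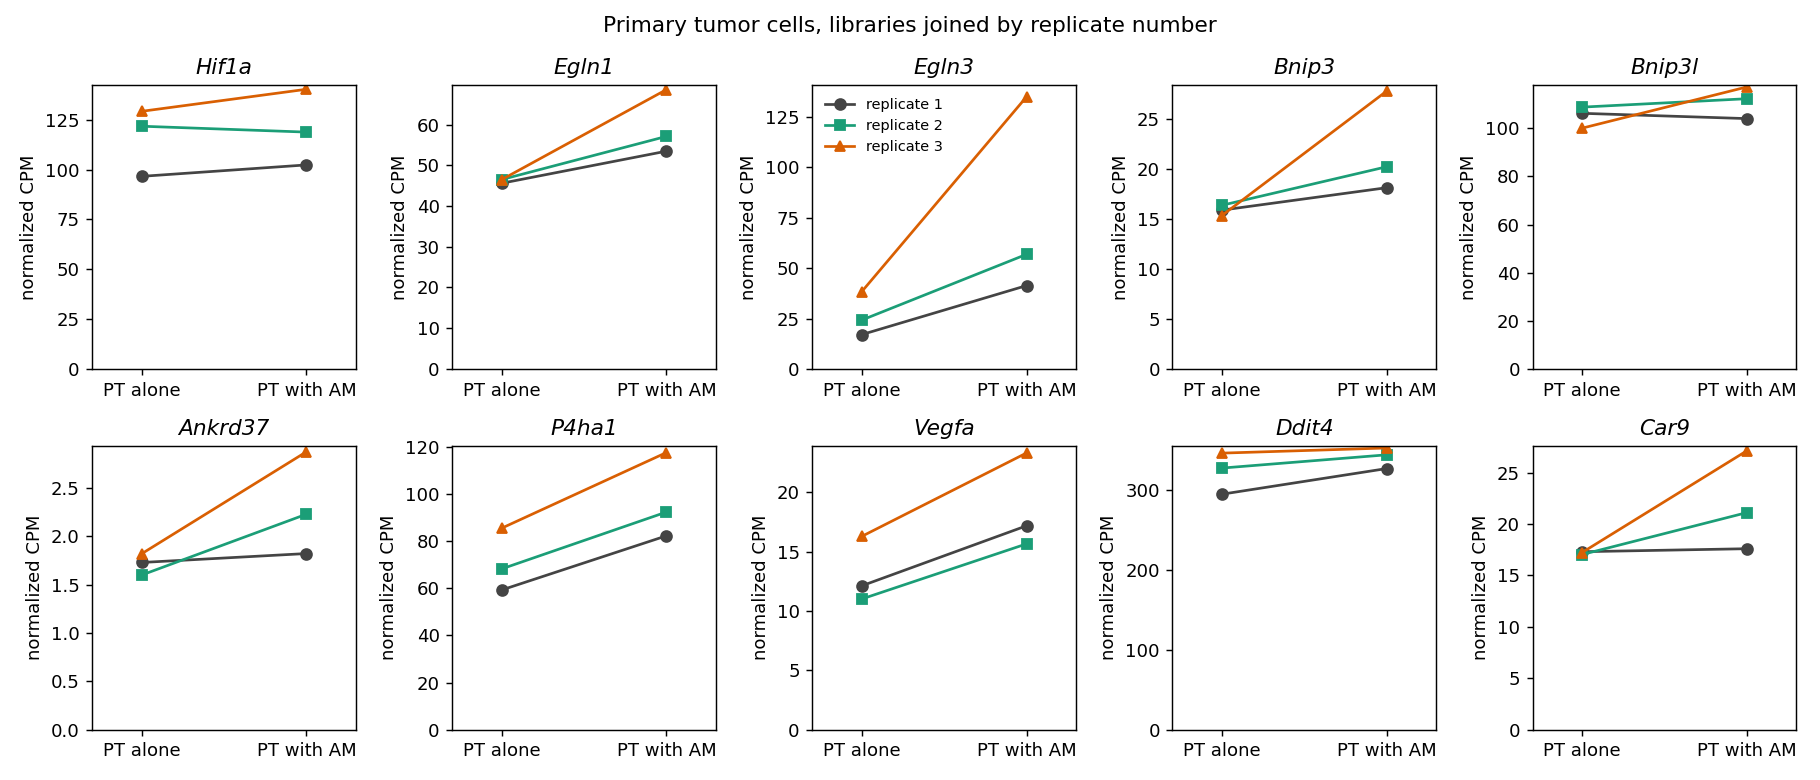
Normalized CPM (vertical axes, from 0) of the 10 genes in primary tumor cells alone and with macrophages, with lines joining libraries of the same replicate number. The lines for Vegfa and P4ha1 are nearly parallel, and Egln3 climbs most in replicate 3, to 135 CPM.

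In early lesion cells 0 of 10 members passed with macrophages, with 2 at an unadjusted p under 0.05 by edgeR and 0 called by DESeq2; 0.369% of all 14891 genes were higher and 0.141% lower. The median log2 difference was 0.14. Bnip3 measured 18.8, 19.5 and 21.6 CPM alone and 32.7, 21.8 and 26.3 CPM with macrophages, groups that did not overlap (0.43 ± 0.15 SE, adjusted p 0.258). Egln3 was low throughout, at 4.27 to 5.34 CPM alone and 5.32 to 6.07 CPM with macrophages (0.26 ± 0.12, adjusted p 0.362). The highest co-cultured values of Bnip3, P4ha1, Vegfa and Hif1a were all in replicate 1, the library with the most fibroblast marker RNA, 1853 summed CPM against 567 to 1106 in the other EL libraries. Without it Bnip3 gave 0.26 and P4ha1 0.14 in place of 0.32; the part of fibroblast RNA was not tested. Of the 37 other genes 0 passed, with 5 at an unadjusted p under 0.05 and 3 by DESeq2; without that same replicate 6 passed, among 1612 genes in all where 76 passed with it.

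In the interaction that compares the mammary responses over both experiments 0 of 10 members passed, with 2 at an unadjusted p under 0.05 by edgeR and 0 by DESeq2, where 0.0393% of genes were higher and 0.0981% lower. Egln3 differed by 1.3 ± 0.65 (SE, adjusted p 0.386) and Egln1 by 0.38 ± 0.11 (adjusted p 0.194). With a replicate block these 2 members passed, Egln3 at 1.21 ± 0.17 (adjusted p 0.00537) and Egln1 at 0.37 ± 0.09 (adjusted p 0.0265), where 3.93% of genes were higher and 3.46% lower. Same-numbered PT libraries correlated in every pair, those of EL cells did not, and the labels state no pairing. Of the other 37 genes 0 passed, with 8 at an unadjusted p under 0.05 by edgeR and 2 by DESeq2.

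**Figure D4:**
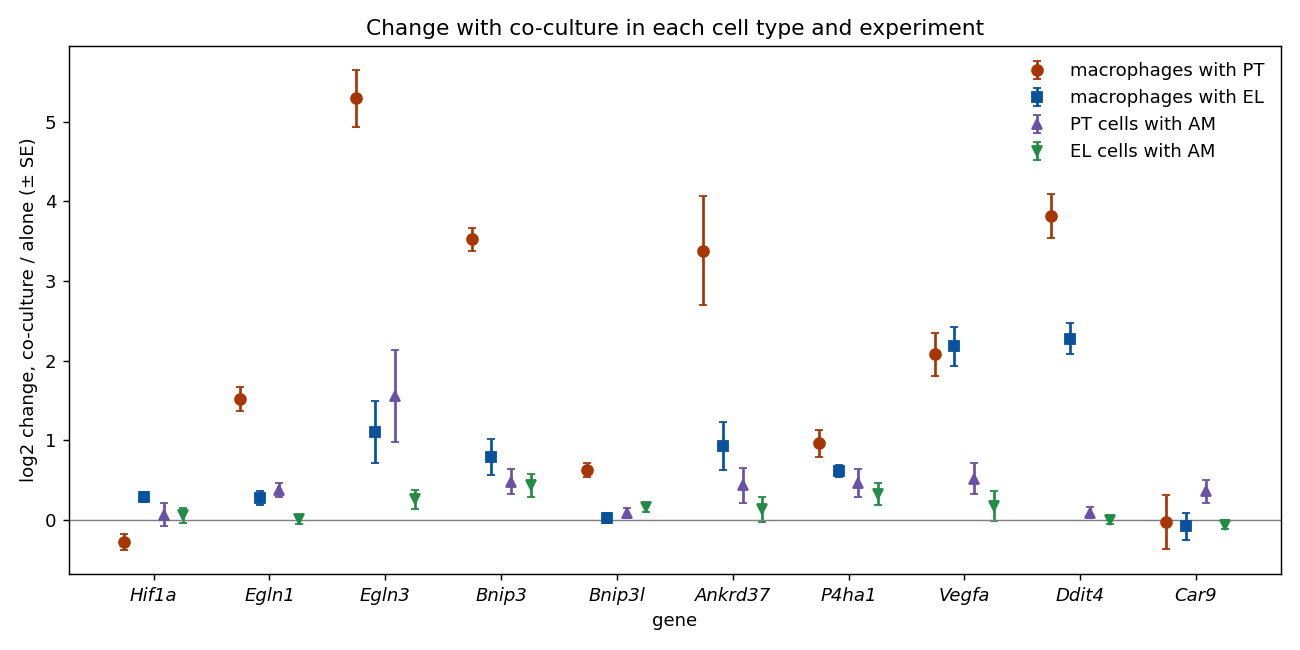
Log2 change with co-culture (vertical axis, bars are SE) of the 10 genes in macrophages and mammary cells of each experiment. In macrophages with primary tumor cells Egln3 reaches 5.30, and Car9 lies near 0 in both macrophage comparisons.

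Resting levels separated the cell types for most members. Against EL cells, macrophages alone had higher Hif1a (log2 0.86 ± 0.05 SE), Bnip3l (1.41 ± 0.06), Egln1 (0.57 ± 0.08) and P4ha1 (0.42 ± 0.07), and lower Ddit4 (-7.21 ± 0.13), Vegfa (-2.24 ± 0.20) and Car9 (-1.64 ± 0.10), all with an adjusted p of at most 0.000337. Among all genes 37% were higher and 40.7% lower, so a call in this contrast is common. Ankrd37 did not pass (adjusted p 0.984). Against PT cells, macrophages had higher Hif1a (1.06 ± 0.13) and Bnip3l (1.65 ± 0.09) and lower Ddit4 (-7.76 ± 0.18), Ankrd37 (-2.56 ± 0.61), Car9 (-2.31 ± 0.16), P4ha1 (-2.14 ± 0.15) and Vegfa (-1.89 ± 0.26), with adjusted p at most 0.00327, where 36.7% of genes were higher and 42.3% lower. Egln1 did not pass (adjusted p 0.739).

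Egln3 and Bnip3 are described only, since these macrophage libraries are controls of the contrasts that chose them. Egln3 was higher in macrophages than in EL cells by 1.90 ± 0.23 but lower than in PT cells by 3.42 on the log2 scale. Bnip3 was higher in macrophages in both, by 1.00 ± 0.16 and 0.97 ± 0.14. Ddit4 showed the widest gap: its 264 to 346 CPM in mammary cells alone compared with 0.900 to 2.25 CPM in macrophages alone. Per kilobase of exon Ddit4 was the highest member in mammary cells, at 151 CPM per kb in EL and 184 in PT cells.

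Among the other genes, 10 were higher and 21 lower in macrophages than in EL cells, and 7 higher and 19 lower than in PT cells, of 37 and 33 tested. Over all genes 37% were higher and 40.7% lower against EL cells, and 36.7% and 42.3% against PT cells. Cxcr4 was higher in macrophages by 5.41 and 3.26, the Myc antagonist gene Mxi1 by 2.09 and 2.13, and the clock-linked repressor gene Bhlhe40 by 1.85 and 2.39. Cited2, which encodes a competitor of HIF for its coactivator, was lower by 2.82 and 2.20 on the log2 scale, and Pgf by 2.88 and 6.90. Adjusted p was at most 6.13e-08 for each of these. Car12 had 9 counts in the macrophages alone of the early lesion experiment and 1 in those of the primary tumor experiment, against 446 to 591 CPM in mammary cells alone. The log2 difference from EL cells was -11.94 ± 0.14 (adjusted p 5.13e-12), and the ratio of PT cells to macrophages was 12400, with an exact 95% counting interval of 2230 to 492000.

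Between mammary cells alone, PT cells had 5 members higher and 2 lower than EL cells, where 33.8% of genes were higher and 34.7% lower. Egln3 differed most, 17 to 38.4 CPM against 4.27 to 5.34 CPM (log2 2.45 ± 0.31 SE, adjusted p 0.000604). Hif1a (0.58 ± 0.10), Car9 (0.53 ± 0.06), Bnip3l (0.28 ± 0.06) and Ddit4 (0.25 ± 0.06) were also higher. Vegfa ran the other way, with 11 to 16.3 CPM in PT and 48.9 to 57.4 CPM in EL cells (-2.07 ± 0.15, adjusted p 2.53e-05). Bnip3 was lower by 0.36 on the log2 scale (adjusted p 0.00215), a call lost with all groups in 1 fit (adjusted p 0.115). Egln1, Ankrd37 and P4ha1 did not pass. Of 36 other genes 12 were higher, among them the collagen lysyl hydroxylase gene Plod1 (0.98), Cxcr4 (1.93) and Pgf (1.12), and 11 lower, among them Tmem45a (-4.77), Ndufa4l2, a hypoxia-induced respiratory chain protein gene (-5.84), and the histone demethylase gene Kdm3a (-0.44). All 7 fibroblast markers were also lower in PT cells, with a median log2 difference of -3.12 and summed levels of 186 to 332 CPM against 567 to 1106 CPM in EL cells; their part in these differences was not tested. Stage and experiment cannot be told apart here.

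Across the 8 groups the members fell into different orders, given here for the TMM levels only. Under other processing settings 88 group levels of the members moved and 72 stayed the same, so these orders can depend on the normalization. Bnip3 was highest in macrophages with PT cells, then macrophages with EL cells, then the macrophages alone of the early lesion experiment and those of the primary tumor experiment, with no overlap between these neighbours; EL cells with macrophages overlapped the last of them. Egln3 was highest in macrophages with PT cells, which overlapped PT cells with macrophages, and lowest, without overlap, in the macrophages alone of the same experiment. Car9 was highest in PT cells with macrophages, then PT cells alone, then EL cells, with macrophages lowest. Vegfa was highest in both EL cell groups and macrophages with EL cells, which all overlapped along that order.

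The genes most like Egln3 over the 22 libraries, by Pearson correlation of log2(CPM + 1) among 11982 genes, were Tpi1 (0.973), Pgm2 (0.961), Prelid2 (0.917), Snrpb2 (0.911) and Clybl (0.904). Those most like Bnip3 were Gys1 (0.982), D2hgdh (0.942), Zfp703 (0.941), Nfil3 (0.935) and Ddi2 (0.934). Egln1 ranked 11 for Bnip3 (0.921) and 91 for Egln3 (0.774), and Egln3 and Bnip3 correlated at 0.532. These values are descriptions over libraries that share cell type, experiment and, for 6 of them, the high mitochondrial share.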

How the data were processed

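The authors deposited raw read counts per gene symbol in 1 table per experiment, per the labels. Per the submitters' processing notes, bcl2fastq 2.17 and mm10 were used; the sources used here name no aligner, annotation or strand setting. The 48 values of at least 1000000 in the primary tumor table end in 0. There were 0 unmapped columns. Members and gene lists were chosen with earlier results of these data known.

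Counts were tested with edgeR 4.0.16 in R 4.3.3 (filterByExpr, TMM, robust quasi-likelihood F test, two-sided) on the groups compared, with Benjamini-Hochberg adjustment over all genes and a threshold of 0.05. SE is the log2 change divided by the root of F. All 10 members were named, and of other HIF genes up to 3 per direction with the smallest adjusted p among those past the threshold; others named, such as Car12 in macrophages with primary tumor cells, Vhl, Higd1a, Ak4, Plod2 and Angptl4 in primary tumor cells, and Epas1 there, were picked after their values were seen. The epithelial share was also added after seeing the data. Replicates are called biological by the labels, and every pair within a group differed beyond sampling noise.

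Alternatives were RLE factors, no filter, DESeq2 1.42.0, a replicate block, all groups in 1 fit, leaving out mitochondrially encoded genes and Grip2, and leaving out each library. Pairing, which the labels do not state, was checked on log2(CPM + 0.5) deviations over 10333 genes with a mean of at least 5 CPM. Same-numbered libraries correlated in every pair of primary tumor cells but not in every pair of early lesion cells (0.452, 0.402 and -0.0889). In simulated counts the test recovered 58.2% of 1.5-fold and 79.1% of 2-fold changes for primary tumor cells (13506 genes), and 49.3% and 83.6% for early lesion cells (14891 genes). Exon lengths and overlaps came from GENCODE on GRCm38.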

Additional observations from a re-analysis of the deposited data

Results flagged for a closer look

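Among the other HIF pathway genes, 12 had macrophage responses that differed between the experiments by the interaction test (edgeR quasi-likelihood test, Benjamini-Hochberg over all genes). Over all genes in that fit 5.7% were higher and 5.25% lower. The log2 response with primary tumor cells exceeded that with early lesion cells for Ndrg1 by 3.28, Ak4 by 2.48, Pgf by 2.19, Selenbp1 by 2.13, Flt1 by 1.64, Fam162a by 1.56, Higd1a by 1.24, Narf by 1.07, Vhl by 0.833, Mxi1 by 0.706 and Cited2 by 0.644. For Tfrc it was smaller, at -0.982. Pgf rested on 4 to 21 counts per library in the macrophages of the primary tumor experiment. The primary tumor experiment's macrophages are also the libraries with 65.7 to 78.6% mitochondrial counts, whose part in these differences was not tested.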

How the results depend on the processing

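Counts of calls in mammary cells moved most. Early lesion cells had 76 genes past the threshold, and 174 with no filter, 495 with DESeq2, 485 with the replicate block, 146 with all groups in 1 fit and 0 to 1612 without single libraries; other HIF genes went from 0 to 2, 3 and 1 under the first 3 and to 0 to 6 without single libraries. Primary tumor cells had 225, and 466 with no filter, 734 with DESeq2, 2841 with the replicate block and 4 to 162 without single libraries; other HIF genes went from 1 to 2, 5 and 16, and to 0 to 1, and members from 0 to 1, 2 and 4. The difference of mammary responses had 21, and 35, 330 and 1129, or 9 to 184 without single libraries; other HIF genes went from 0 to 2 with DESeq2, 7 with the block and 0 to 2 without single libraries, and the block called 2 members, Egln1 and Egln3, although numbers do not pair early lesion cells. Macrophages with early lesion cells had 2568, and 4432 with crossed replicate numbers, chosen after seeing the data since same numbers correlated at -0.167. The difference of macrophage responses had 1503 genes and 12 other HIF genes, or 561 to 1890 and 7 to 12 without single libraries. Outside primary tumor cells and the difference of mammary responses, the block changed no call of a tested member; among other HIF genes it ended those of Tfrc with early lesion cells (adjusted p 0.0567) and Flt1 in the difference of macrophage responses (adjusted p 0.0641), and changed others, not printed here, in either direction. Among the members described with no test, it put 8 rather than 4 past the threshold in macrophages with early lesion cells. It also ended the call of Hif1a with primary tumor cells and in the difference of macrophage responses. The numbers do not pair macrophages. The share of all genes called with the block in macrophages is not given here, so nothing is read from that count of 8.

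Group levels of the members also depended on the settings: 88 moved and 72 stayed the same under settings other than TMM on all genes. Comparisons of level across groups and experiments, such as those between control macrophages, carry that limit. Small member differences changed sign. Egln1 in early lesion cells gave -0.00068 with no filter, Ankrd37 in macrophages against early lesion cells 0.0027 with RLE, and Egln1 in macrophages against primary tumor cells -0.143 with no filter, -0.0265 with DESeq2 and -0.0222 without mitochondrially encoded genes and Grip2. Without single libraries the ranges in early lesion cells were -0.051 to 0.146 for Hif1a, -0.041 to 0.049 for Egln1, -0.059 to 0.316 for Vegfa and -0.035 to 0.021 for Ddit4, and in primary tumor cells -0.063 to 0.166 for Hif1a. In the difference of mammary responses they were -0.122 to 0.119 for Hif1a, -0.161 to 0.205 for Bnip3 and -0.025 to 0.309 for P4ha1. In macrophages they were -0.605 to 0.446 for Ankrd37 against early lesion cells and -0.057 to 0.175 for Egln1 against primary tumor cells, and between mammary cells alone -0.0088 to 0.026 for Egln1. Ankrd37 could not be fitted in 1 of the 6 fits of macrophages with primary tumor cells that left out a library. The cause was not tested.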
